A study of Mus musculus with 4 samples.

Results

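The nuclear genes of the mitochondrial respiratory chain and of ATP synthase were followed in mouse embryonic stem cells after knockdown of Chd4. Chd4 is the remodelling ATPase of NuRD, a chromatin complex that also carries histone deacetylases. They were chosen by gene symbol from the array's annotation: every probe set with 1 symbol that started with Ndufa, Ndufb, Ndufc, Ndufs, Ndufv, Uqcr, Atp5, Cox4i, Cox5, Cox6, Cox7 or Cox8, or that was Sdha, Sdhb, Sdhc, Sdhd or Cycs, with the Ndufaf assembly factors left out. This gave 173 of the 45101 probe sets, for 83 of 18193 genes. The rule used no measured value. A further 10 probe sets that name several genes, among them a gene of this kind, were not used. The Chd4 RNAi group (2 arrays) came from J1 embryonic stem cells of the Tet-on inducible RNAi line Chd4i-1, given doxycycline at 5 ng/ml for 3 days. The control group (2 arrays) came from the same line without doxycycline. Both groups therefore carried the construct, and both were cultured without feeders, on gelatin, with 15% serum plus LIF, the cytokine that holds these cells undifferentiated. All 4 arrays come from 1 line, and effects of doxycycline, of RNAi and of Chd4 loss cannot be told apart here. Arrays of the same group are described by the submitters as duplicates of separate biological origin, and their number limits the precision of each value.

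The respiratory chain passes electrons from NADH (complex I) and succinate (complex II) through coenzyme Q to complex III, cytochrome c and complex IV, where oxygen is reduced. The proton gradient that complexes I, III and IV build drives ATP synthase, whose F1 head turns over a ring of c subunits in the membrane. A few core subunits are made from mitochondrial DNA, and all others, including the genes described here, are nuclear. Naive mouse embryonic stem cells are known to use both respiration and glycolysis, whereas primed pluripotent cells rely more on glycolysis.

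Chd4 was lower in both RNAi arrays at its brightest probe set, with MAS5 signals of 1155 and 1480 in Chd4 RNAi cells against 2215 and 1826 in control cells (log2 difference -0.62 ± 0.12 SE, limma adjusted p = 0.00638). Its other probe sets fell as well, with log2 differences of -1.05 and -0.83 (limma adjusted p = 0.000244 and 0.00232). The arrays shared 1 scale, with trimmed mean signals of 496.3 to 497.1, and no array stood apart in the ratio of 3' to 5' signal for Gapdh (0.793 to 0.820). The embryonic stem cell markers were present, and all 7 listed had a mean signal above the median of all probe sets (76.0). Of these 7, Dppa5a and Utf1 rose (log2 differences 0.19 and 0.31), Esrrb fell (-0.29) and 4 did not pass, among them Pou5f1 (-0.17). In a bulk measurement fewer cells of a type and less RNA per cell cannot be told apart.

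Most subunit genes changed little, and those that changed did so in both directions. Each gene was read at its brightest probe set, and 81 of the 83 genes lay among the probe sets tested, the top 60% by mean signal. Of these 81, 5 rose, 10 fell and 66 did not pass (limma, adjusted p under 0.05 over all 27022 probe sets tested). That is 18.5% of them, beside 18.1% of all 12615 genes tested by their brightest probe set and 24.3% of the 5546 genes in the top 20% by signal (12.7% higher and 11.6% lower). The share called was thus near the background. Groups did not overlap for 53 of the 81 genes, or 65.4%, beside 60.6% of all genes tested and 67.7% of the bright ones. The median log2 difference was -0.018, against 0.014 over all genes tested, and single genes ran from -0.55 (Cox7c) to 0.85 (Cox8c). In this limma fit 32 of the 81 genes, and 4235 of all 12615 genes tested, had an unadjusted p under 0.05. The latter is the background for such counts by complex and list below. Without the intensity trend in the variance model 0 of the 81 genes, and 0 of all genes tested, passed in limma. An unadjusted p under 0.05 was then held by 7 of the 81, beside 2993 of all 12615. Against a change of 1.2-fold, limma's treat called 0 of the 81, beside 562 (4.46%) of all 12615 genes tested. Of the 81, 4 had an unadjusted p under 0.05 in that test, beside 1638 of all 12615.

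**Figure D1:**
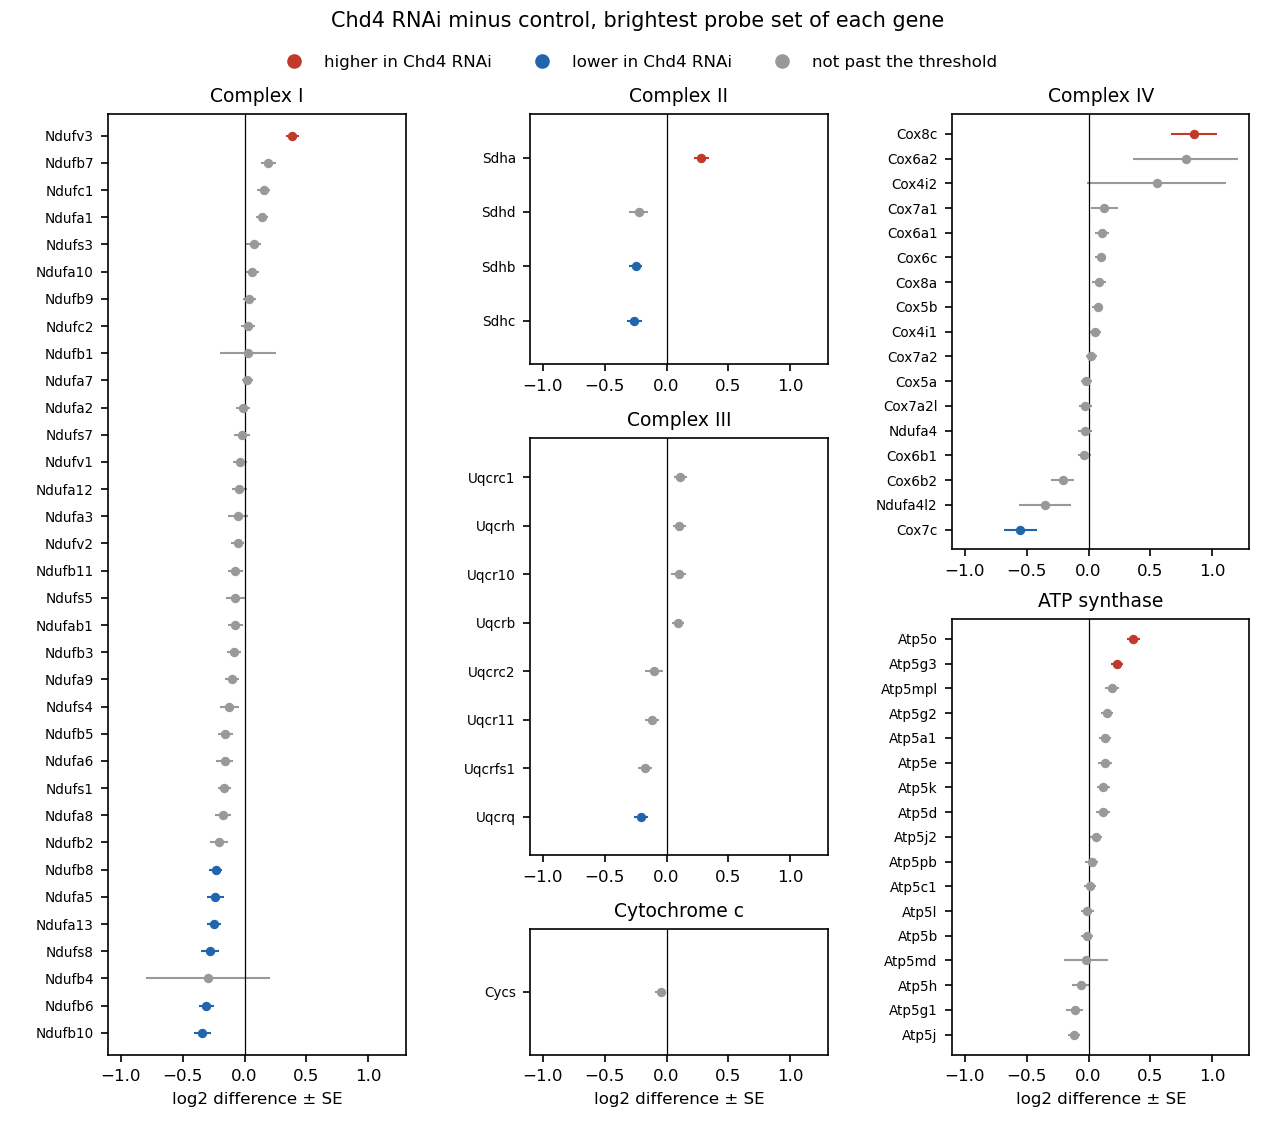
Log2 difference in signal, Chd4 RNAi minus control, with its standard error (x axis) for each of the 81 tested subunit genes at its brightest probe set (y axis, sorted within each complex). Red points rose (5 genes), blue points fell (10) and grey points did not pass, and 6 of the 7 called genes of complex I lie left of 0.

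Complex I, the NADH dehydrogenase, held most of the falls and is also the largest group, with 34 of the 81 genes tested. Of its 34 genes tested, 6 fell, 1 rose and 27 did not pass. Differences were below 0 for 24 and above 0 for 10, with a median of -0.075. The share called in complex I was 20.6%. The background is 18.1% of all genes tested, with 10.3% of all genes called higher and 7.79% called lower. Among genes in the top 20% by signal it is 24.3% (12.7% higher and 11.6% lower). Of all 12615 genes tested, 6069 had differences below 0 and 6546 above 0.

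Ndufv3, an accessory subunit of the NADH-oxidising flavoprotein arm, was the riser. Its signals were 8403 and 8590 in Chd4 RNAi cells against 6583 and 6431 in control cells. Both RNAi arrays lay above both controls, a rise of 30.6% (log2 difference 0.38 ± 0.052 SE, limma adjusted p = 0.000730). Ndufb10, an accessory subunit of the membrane arm, had 2991 and 3361 in Chd4 RNAi cells against 4019 and 4018 in control cells. The RNAi arrays were both below the controls, and it fell by 21.1% (-0.34 ± 0.070, limma adjusted p = 0.00816). Ndufb6, also of the membrane arm, had 6014 and 6177 against 7223 and 7887 in control cells. The groups did not overlap, and it fell by 19.3% (-0.31 ± 0.059, limma adjusted p = 0.00575), but without control replicate 2 the call ended (-0.25, limma adjusted p = 0.0521). Its further probe set had a log2 difference of -0.13 and did not pass.

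Ndufs8, a core subunit that carries iron-sulphur clusters of the arm that hands electrons to coenzyme Q, had 3085 and 3437 in Chd4 RNAi cells against 3800 and 4099 in control cells. The groups stood apart, and it fell by 17.5% (limma adjusted p = 0.0266). The core subunit gene Ndufv1 did not pass at its brightest probe set (log2 difference -0.039). Of its further probe sets 1 fell (-0.21, limma adjusted p = 0.0340) and the other did not pass (-0.18, 0.135). Read at the brightest probe sets, Ndufs8 was the only one of the 6 core subunit genes tested to be called. When control replicate 2 was dropped it no longer passed (log2 difference -0.22, limma adjusted p = 0.155), and the same held for Chd4 RNAi replicate 1 (-0.20, limma adjusted p = 0.124). Ndufa13, also known as Grim19, sits where the arms of the complex meet. It had 6667 and 6473 in Chd4 RNAi cells against 7726 and 7867 in control cells, and fell by 15.7% (limma adjusted p = 0.00996). Ndufa5, an accessory subunit of the arm that faces the matrix, fell by 15.1%, and Ndufb8, of the membrane arm, fell by 15.0% (limma adjusted p = 0.0398 and 0.0156). The groups did not overlap for Ndufa13, Ndufa5 or Ndufb8. The call of Ndufa13 ended without control replicate 2 (limma adjusted p = 0.0602), that of Ndufb8 without either control (0.0817 without replicate 1 and 0.0603 without replicate 2) and that of Ndufa5 without either control (0.173 and 0.104) or without Chd4 RNAi replicate 1 (0.160).

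Several genes of complex I leaned the other way without passing. Ndufb7 had 6421 and 6933 in Chd4 RNAi cells against 6003 and 5693 in control cells (log2 difference 0.19, limma adjusted p = 0.0578), and Ndufc1 had 10581 and 10655 against 9279 and 9828 in control cells (0.15, limma adjusted p = 0.0725). Their further probe sets gave 0.17 and 0.15. The groups of both genes did not overlap.

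Complex II, succinate dehydrogenase, has 4 subunits, and 3 of their genes were called at their brightest probe sets, in opposite directions. Sdha, the flavoprotein that oxidises succinate, had 5932 and 6183 in Chd4 RNAi cells against 4747 and 5233 in control cells. Both RNAi arrays were above both controls, a rise of 21.5% (log2 difference 0.28 ± 0.064 SE, limma adjusted p = 0.0131). Its further tested probe sets did not pass, with 0.080 at the brighter and 0.86 at a dim one (limma adjusted p = 0.457 and 0.262). Sdhb, the iron-sulphur subunit that takes the electrons from Sdha, had 5915 and 6181 in Chd4 RNAi cells against 7197 and 7173 in control cells. It lay below the controls in both RNAi arrays and fell by 15.8% (-0.25 ± 0.054, limma adjusted p = 0.0111). Of the membrane anchors, Sdhc had 3695 and 3815 against 4506 and 4490 in control cells and fell by 16.5% (limma adjusted p = 0.0137). The further probe set of Sdhc rose (0.44, limma adjusted p = 0.0252), as described with the probe sets. Sdhd had 3172 and 3452 against 4113 and 3644 in control cells and did not pass (-0.23, limma adjusted p = 0.0698). Its other probe set fell (-0.53, limma adjusted p = 0.0388), and Sdhd passed with its probe sets averaged (-0.38, limma adjusted p = 0.0329), without control replicate 2 (0.0360) and without Chd4 RNAi replicate 2 (0.0371). All 4 genes had groups that did not overlap. The calls of Sdha, Sdhb and Sdhc ended without control replicate 1 (0.21, -0.25 and -0.26, limma adjusted p = 0.106, 0.0512 and 0.0627), and that of Sdhc also without control replicate 2 (limma adjusted p = 0.0599).

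Complex III, the cytochrome c reductase, had 1 fall and 0 rises among 8 genes in limma, with 2 genes at an unadjusted p under 0.05. Uqcrq, a small subunit of the complex, had 5066 and 5376 in Chd4 RNAi cells against 6042 and 6008 in control cells and fell by 13.4% (limma adjusted p = 0.0342). Its call ended without control replicate 1 (limma adjusted p = 0.132), control replicate 2 (0.115) or Chd4 RNAi replicate 1 (0.140). Uqcrfs1, the Rieske iron-sulphur protein, had 5029 and 5199 against 5869 and 5657 in control cells (-0.17, limma adjusted p = 0.0680). Uqcrc1, a core subunit, leaned up with 8153 and 7745 against 7458 and 7246 in control cells (0.11, limma adjusted p = 0.202). Neither of these passed, although their groups did not overlap. Cycs, the electron carrier cytochrome c, had 13490.5 and 13781 in Chd4 RNAi cells against 13832 and 14370 in control cells, a log2 difference of -0.048 (limma adjusted p = 0.566). Its further tested probe sets gave 0.046 and 0.038, so the sign differed between probe sets.

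**Figure D2:**
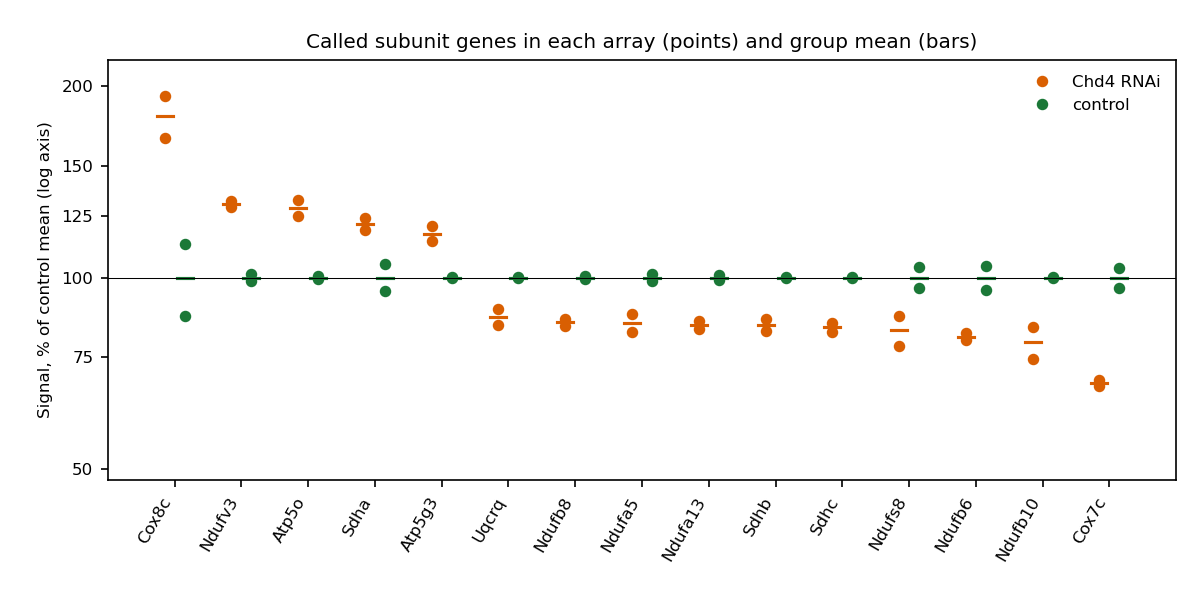
Signal of the 15 called subunit genes in each array as a percent of the gene's control mean (y axis, log scale), with Chd4 RNAi arrays in orange left of control arrays in green and bars at group means. The 5 genes that rose stand at the left and the 10 that fell at the right, and the groups do not overlap for any of them.

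Complex IV, cytochrome c oxidase, here with Ndufa4, whose protein is found in this complex, had 1 rise and 1 fall among 17 genes tested. Both were at dim probe sets. Cox8c, a Cox8 isoform known from testis, had signals of 320.5 and 373.8 in Chd4 RNAi cells against 168.1 and 218.8 in control cells. Both RNAi arrays were above both controls, a rise of 80.5% (log2 difference 0.85 ± 0.19 SE, limma adjusted p = 0.0114), and without control replicate 1 the call ended (0.66, limma adjusted p = 0.0610). Cox7c, a small subunit of all tissues, had 321.6 and 328.6 in Chd4 RNAi cells against 458.7 and 493.7 in control cells and fell by 31.7% (limma adjusted p = 0.0187). That call ended without either control, with a log2 difference of -0.60 without replicate 1 and -0.50 without replicate 2 (limma adjusted p just above the threshold of 0.05 without replicate 1 and 0.116 without replicate 2). Its further probe set did not pass (-0.35, limma adjusted p = 0.329).

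None of the other commonly expressed subunits of complex IV passed at its brightest probe set. Cox6a1, Cox6c, Cox8a and Cox5b had log2 differences of 0.11, 0.099, 0.084 and 0.073, and Cox6c and Cox5b each have a further probe set that fell, described with the probe sets. Cox4i1, the regulatory subunit, had 18980 and 19150 in Chd4 RNAi cells against 17681 and 19122 in control cells (log2 difference 0.052, limma adjusted p = 0.548). Cox5a, Cox6b1, Cox7a2 and Ndufa4 had differences of -0.017, -0.036, 0.022 and -0.029, and their groups overlapped. Among the tissue-restricted isoforms, Cox7a1, the heart and skeletal muscle form, had 695.4 and 784.6 against 645.4 and 708.0 in control cells, and Cox6b2, the testis form, 1115 and 1196 against 1415 and 1257 in control cells. Neither passed (0.13 and -0.21, limma adjusted p = 0.508 and 0.168). Ndufa4l2, a relative of Ndufa4 known as a hypoxia target, had 217.1 and 160.5 against 259.8 and 218.0 in control cells and did not pass (-0.35, limma adjusted p = 0.312). Cox6a2, the muscle form of subunit 6a, had 100.6 and 71.6 against 35.9 and 67.3 in control cells, and Cox4i2, known from lung, had 76.9 and 52.6 against 78.6 and 24.0 in control cells. Both genes were near the median of all probe sets and did not pass (limma adjusted p = 0.256 and 0.583). Cox7b2 and Cox8b were too dim to be tested, with 47.0 and 45.6 in Chd4 RNAi cells against 11.5 and 21.4 in control cells for Cox7b2 and 21.2 and 8.11 against 46.9 and 69.7 in control cells for Cox8b.

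Markers of cells that use such isoforms were read beside them, and several were too dim to be tested. The summed signal of 7 cardiac and skeletal muscle markers was 720.5 to 841.1 in Chd4 RNAi arrays and 368.1 to 379.5 in control arrays, with 4 of the 7 above the median in mean signal. Of the 7, 2 were called, Myh6 and Myh7, both higher. Ckm and Acta1 had log2 differences of -0.16 each and Myl2 had 0.70 (limma adjusted p = 0.262), and none of these passed. Tnnt2 and Mb were too dim to be tested. Tnnt2 had 52.6 and 24.8 in Chd4 RNAi cells against 22.9 and 4.86 in control cells. Mb had 89.3 and 54.0 against 3.37 and 15.8 in control cells. The summed signal of 6 male germ cell markers was 382.3 to 438.0 in Chd4 RNAi arrays and 166.7 to 194.1 in control arrays. Of those 6, 1 was called, Ldhc, which was higher, and it alone had a mean signal above the median. Acrv1 was tested and did not pass (log2 difference 0.063, limma adjusted p = 0.947). Pgk2 and the late germ cell markers Prm1, Prm2 and Tnp1 were too dim to be tested. The part of such cells in the rise of Cox8c was not tested. Fibroblast markers summed to 666.3 to 770.9 in Chd4 RNAi arrays and 322.0 to 400.0 in control arrays. Of the 7 listed, only Thy1 was called (log2 difference 1.61, limma adjusted p = 7.00e-05). It had 600.6 and 546.8 in Chd4 RNAi cells against 175.6 and 199.5 in control cells. Col1a2 did not pass (0.26, limma adjusted p = 0.749). Col1a1, Col3a1, Dcn, Lum and Postn were too dim to be tested, and Lum and Postn were lower in both RNAi arrays than in both controls. Primitive endoderm markers had 0 of 6 called by limma, but Sox17 and Foxa2 were too dim to be tested. Their summed signal was 479.5 to 507.6 in Chd4 RNAi arrays and 552.7 to 574.6 in control arrays for all 6 markers.

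ATP synthase had 2 rises and 0 falls among 17 genes in limma, with 8 genes at an unadjusted p under 0.05. Atp5o, the subunit that ties the F1 head to the peripheral stalk, had 12077 and 11371 in Chd4 RNAi cells against 9167 and 9062 in control cells. Both RNAi arrays lay above both controls, a rise of 28.6% (log2 difference 0.36 ± 0.052 SE, limma adjusted p = 0.000981). Atp5g3 is one of the genes for the c subunit of the membrane ring. It had 18006 and 17024 in Chd4 RNAi cells against 14932 and 14934 in control cells and rose by 17.2% (0.23 ± 0.048, limma adjusted p = 0.00845). The mature c subunit is the same protein from each of its genes, and the other genes for it did not pass: Atp5g2 had 9460 and 9863 against 8669 and 8771 in control cells (0.15, limma adjusted p = 0.0791), and Atp5g1 had 4643 and 5222 against 5438 and 5216 in control cells (-0.11, limma adjusted p = 0.309). Among the F1 head genes 0 of 5 passed by limma, with 2 at an unadjusted p under 0.05. The catalytic subunit Atp5b had 19987 and 18735 in Chd4 RNAi cells against 19364 and 19708 in control cells (-0.014, limma adjusted p = 0.890), and Atp5a1 had 14922 and 15215 against 13696 and 13771 in control cells (0.13, limma adjusted p = 0.0765). Atp5mpl, a small membrane subunit, stood just outside the threshold (0.19, limma adjusted p = 0.0519).

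The calls of Ndufv3, Ndufb10, Atp5o and Atp5g3 held when each array was left out in turn, with adjusted p of at most 0.00360, 0.0364, 0.00390 and 0.0369 in limma. The other 11 of the 15 calls ended without at least 1 array. Ndufv3, Ndufb10 and Atp5g3 had no further tested probe set, and that of Atp5o leaned the other way (log2 difference -0.16). Sdha and Sdhb, of the same complex, changed in opposite directions at their brightest probe sets. The factors NRF1, the ETS factor GABPA and YY1 are known to act at promoters of respiratory genes. The promoters of Ndufv3, Ndufb10, Atp5o, Atp5g3, Sdha and Sdhb are therefore shown. Each is 250 bases before to 50 after the start from RefSeq (GRCm38.p6), in the gene's direction, with matches on either strand in capitals. The motifs searched were the NRF1 palindrome with any base at the position before its central T, the ETS letters CCGGAAG and the YY1 letters AAGATGGC. No match to the ETS or YY1 letters overlapped an NRF1 match in these windows.
Ndufv3 promoter, chr17:31519865-31520164, plus strand: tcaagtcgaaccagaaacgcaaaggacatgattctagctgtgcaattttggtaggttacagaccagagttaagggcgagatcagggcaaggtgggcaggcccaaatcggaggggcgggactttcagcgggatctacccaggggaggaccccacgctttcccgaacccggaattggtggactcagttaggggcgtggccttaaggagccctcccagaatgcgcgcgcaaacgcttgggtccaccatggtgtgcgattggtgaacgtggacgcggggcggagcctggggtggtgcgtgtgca
Atp5o promoter, chr16:91931581-91931880, minus strand: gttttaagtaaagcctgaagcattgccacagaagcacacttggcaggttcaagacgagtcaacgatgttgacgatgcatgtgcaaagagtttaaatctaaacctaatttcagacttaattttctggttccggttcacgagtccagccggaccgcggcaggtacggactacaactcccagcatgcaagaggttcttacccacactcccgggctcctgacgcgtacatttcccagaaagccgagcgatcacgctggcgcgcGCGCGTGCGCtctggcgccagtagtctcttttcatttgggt
Atp5g3 promoter, chr2:73911277-73911576, minus strand: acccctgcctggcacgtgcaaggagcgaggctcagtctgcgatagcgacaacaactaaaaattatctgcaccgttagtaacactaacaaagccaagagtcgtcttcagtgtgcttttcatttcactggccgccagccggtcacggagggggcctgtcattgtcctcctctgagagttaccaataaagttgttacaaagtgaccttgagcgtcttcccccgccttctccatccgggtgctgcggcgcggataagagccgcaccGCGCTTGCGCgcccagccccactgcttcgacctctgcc
Ndufb10 promoter, chr17:24724374-24724673, minus strand: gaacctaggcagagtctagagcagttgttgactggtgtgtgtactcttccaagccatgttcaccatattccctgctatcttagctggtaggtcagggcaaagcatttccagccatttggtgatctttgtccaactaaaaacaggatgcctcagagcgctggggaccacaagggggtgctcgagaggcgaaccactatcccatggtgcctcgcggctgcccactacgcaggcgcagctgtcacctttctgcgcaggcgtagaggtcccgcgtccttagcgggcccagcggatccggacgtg
Sdha promoter, chr13:74350191-74350490, minus strand: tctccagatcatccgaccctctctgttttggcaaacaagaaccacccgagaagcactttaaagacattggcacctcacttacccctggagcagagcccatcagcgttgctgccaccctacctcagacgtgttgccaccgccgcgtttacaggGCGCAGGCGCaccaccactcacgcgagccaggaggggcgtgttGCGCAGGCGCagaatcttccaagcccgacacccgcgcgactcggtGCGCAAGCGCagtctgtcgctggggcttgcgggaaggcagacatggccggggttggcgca
Sdhb promoter, chr4:140961021-140961320, plus strand: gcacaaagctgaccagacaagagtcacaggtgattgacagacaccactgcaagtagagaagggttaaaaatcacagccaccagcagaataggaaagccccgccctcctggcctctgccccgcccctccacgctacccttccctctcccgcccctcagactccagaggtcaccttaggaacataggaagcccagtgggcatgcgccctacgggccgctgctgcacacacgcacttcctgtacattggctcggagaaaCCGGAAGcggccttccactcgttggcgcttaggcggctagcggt

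In these windows, Atp5o and Atp5g3 each held 1 NRF1 match within the last 50 bases, Sdha held 3, and Sdhb held 1 ETS match and no NRF1 match. Ndufv3 and Ndufb10 held none of these letters. Promoter windows were found for 68 of the 83 genes (73 windows). This NRF1 motif was in 21.9% of these windows and in 4.60% of all 32851 windows of the same length. The ETS letters were in 23.3% against 8.86%, and the YY1 letters in 12.3% against 2.75% of all windows. Among genes called higher, 3 of the 4 with a window held an NRF1 match, and among genes called lower 1 of 8. An ETS match was held by 0 of the 4 and by 3 of the 8. The windows of mitochondrial ribosomal protein genes held the NRF1, ETS and YY1 motifs in 16.4%, 34.2% and 16.4%. A match is a description of the letters and not a site. The strict NRF1 palindrome, whose matches are a subset of those above, was in 5.48% of the members' windows and 0.971% of all.

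The genes of each complex were also summarised by their median in each array. In the Chd4 RNAi arrays the median over the genes of complex I, relative to each gene's control mean, was -0.11 and -0.055 on the log2 scale, against -0.0055 and 0.0055 in the control arrays. For complex II it was -0.28 and -0.19 in Chd4 RNAi arrays, against 0.0025 and -0.0025 in control arrays. For ATP synthase it was 0.050 and 0.12, against -0.0039 and 0.0039 in control arrays. Complex III had 0.0038 and -0.0092 in Chd4 RNAi arrays, against -0.0011 and 0.0011 in control arrays. Complex IV had 0.0098 and 0.059, against -0.021 and 0.021 in control arrays, and its groups overlapped. All genes tested had 0.028 and 0.012 in the Chd4 RNAi arrays. No test was made of these medians.

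Scaling bears on the smaller of these shifts. The median log2 difference of ATP synthase was 0.061 and turned to -0.014 under quantile normalization, and that of complex IV was 0.052 and turned to -0.019. The medians of complex I (-0.075 in both) and complex II (-0.24 in both) kept their place. With all probe sets of a gene averaged, the median of complex II was -0.080 and that of ATP synthase 0.010. The genes of ATP synthase had a median signal of 10419, those of complex I 6048. Over all genes tested, the median log2 difference was 0.038 at control signals of 8000 to 16000 and 0.098 above 16000, against 0.0025 between 4000 and 8000 and -0.016 between 2000 and 4000. Of the 20 subunit genes with control signals of 8000 to 16000, 2 rose and 0 fell in limma. Of the 36 between 4000 and 8000, 2 rose and 7 fell. Over all genes tested, 24.6% of those at 8000 to 16000 and 28.2% of those at 4000 to 8000 were called. Across the 81 genes the difference had a Pearson's r of -0.11 and a Spearman's rho of 0.35 with the mean log2 signal. The genes share the same arrays, so these are descriptions. The part of signal level in the differences between complexes was not tested.

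**Figure D3:**
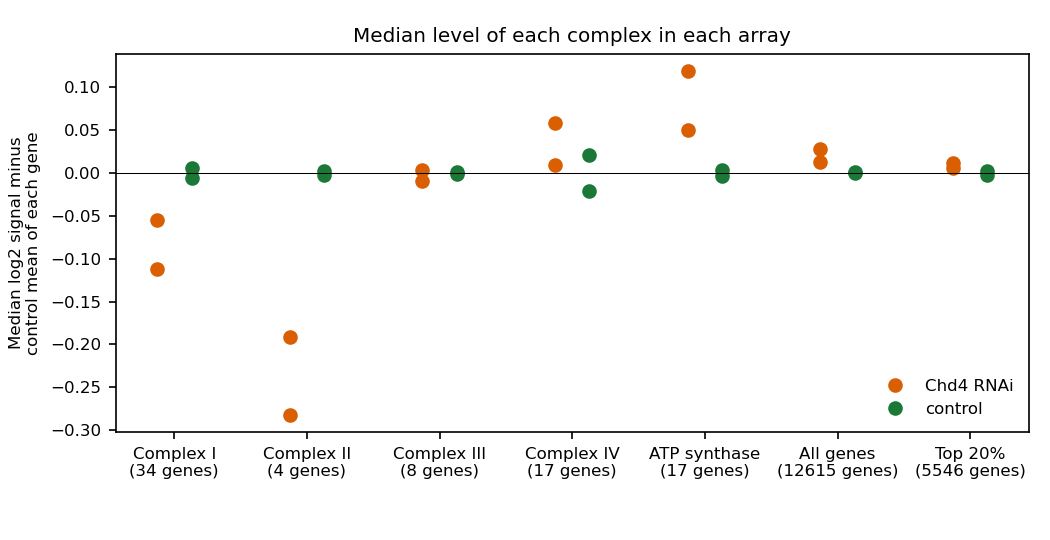
Median over the genes of each complex, of all genes tested and of the top 20% by signal (x axis) of log2 signal minus the gene's control mean (y axis, log2), with a point for each Chd4 RNAi array (orange, left) and control array (green, right). Complex I (-0.11 and -0.055) and complex II (-0.28 and -0.19) lie below their controls in both Chd4 RNAi arrays and ATP synthase (0.050 and 0.12) above.

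Probe sets of the same gene often gave different answers. Of the 173 probe sets 158 were tested, and 7 rose and 21 fell. That is 17.7%, beside 14.2% of all probe sets tested (7.46% higher and 6.77% lower) and 24.2% of those in the top 20% by signal (12.3% higher and 11.9% lower). A further tested probe set existed for 47 of the 81 genes. In 25 of the 47 every further probe set had the sign of the brightest. Of 55 further probe sets with at least 20% of the brightest signal 34 had the same sign, with a median gap of 0.087 in log2 difference, and of 22 dimmer ones 14 did, with a median gap of 0.22. Of the 15 called genes, 9 had a further tested probe set. For 6 of those all signs matched, and for 2 (Ndufa5 and Ndufs8) a further probe set was called the same way.

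Ndufa5 fell at both of its probe sets, with 1702 and 1820 in Chd4 RNAi cells against 2333 and 2041 in control cells at the dimmer one (log2 difference -0.31, limma adjusted p = 0.0316). Ndufs8 was split. Of its 5 further probe sets 2 fell (-0.56 and -0.36, limma adjusted p = 0.0322 and 0.0327), while the other 3 had -0.24, 0.025 and -0.052 and did not pass. Sdhc showed opposite calls, with 1505 and 1222 in Chd4 RNAi cells against 933.1 and 1072 in control cells at its further probe set, a rise (0.44, limma adjusted p = 0.0252), while its brightest probe set fell. With its probe sets averaged Sdhc had a log2 difference of 0.089 (limma adjusted p = 0.433). That further probe set is of the _x_at kind, whose probes can bind transcripts of other genes.

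Whether probe sets of a gene differed was tested with limma's diffSplice, each against the others of its gene. With equal weights it called 5 probe sets of 3 genes, Cox5b, Ndufb2 and Ndufs4 (background 0.536% of 16424 probe sets). The Ndufb2 call was at a probe set with 25.8 and 21.3 in Chd4 RNAi cells against 98.8 and 64.1 in control cells, near or under the median of all probe sets. The Ndufs4 calls were at probe sets with signals of at most 388.5. With each probe set weighted by the precision that its signal gives, a setting chosen after the data were seen, it called 9 probe sets of 5 genes (background 1.77%). These were Atp5o, Sdhc, Uqcrb, Cox6c and Cox5b. Atp5o, which rose at its brightest probe set, had 4419 and 4149 in Chd4 RNAi cells against 4734 and 4806 in control cells at its other probe set, also of the _x_at kind (log2 difference -0.16). The gap between its probe sets was 0.52 (diffSplice adjusted p = 0.00231 weighted and 0.190 unweighted). Averaged over its probe sets, Atp5o no longer passed (0.10, limma adjusted p = 0.186). Uqcrb, a subunit at the coenzyme Q site of complex III, had 22650 and 24666 against 22117 and 22168 in control cells at its brightest probe set (0.094, limma adjusted p = 0.240). At its other probe set it had 5314 and 5813 in Chd4 RNAi cells against 7118 and 6850 in control cells, a fall (-0.33, limma adjusted p = 0.00465). Cox6c gave 0.099 at its brightest probe set and fell at its other one (-0.35, limma adjusted p = 0.0130). Cox5b, a nuclear subunit of complex IV, was even at its 4 bright probe sets (-0.082 to 0.073), while a dim one had 88.9 and 93.5 in Chd4 RNAi cells against 209.9 and 222.5 in control cells, a fall (-1.25, limma adjusted p = 0.00439; diffSplice adjusted p = 0.0114 weighted).

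**Figure D4:**
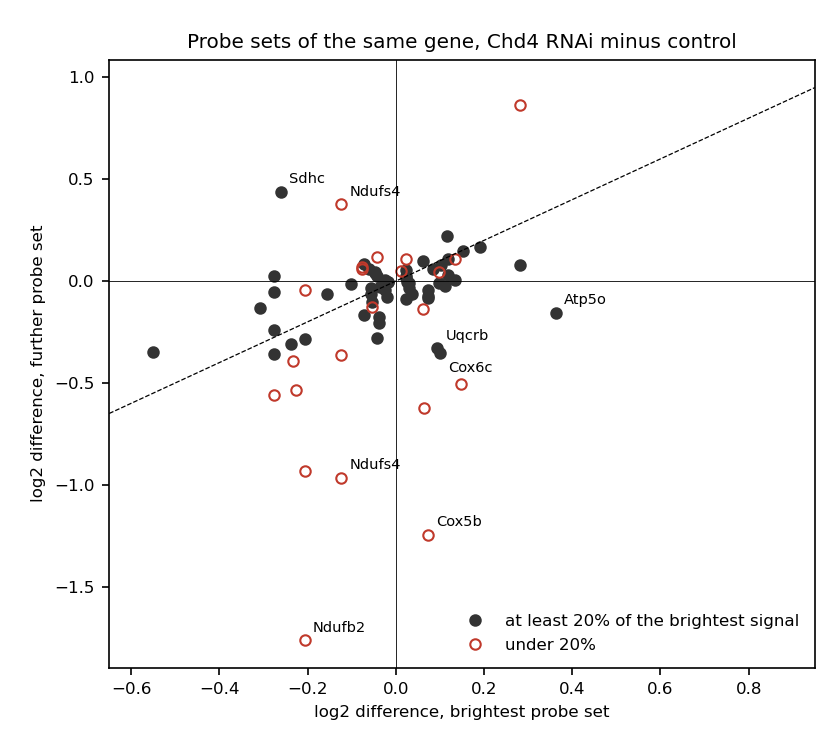
Log2 difference, Chd4 RNAi minus control, at each further tested probe set (y axis) against that at the brightest probe set of the same gene (x axis), for 77 probe sets of 47 genes, with the dashed line at equality. Filled points have at least 20% of the brightest signal and open points less, 48 of the 77 share the sign of the brightest, and the genes named are those that diffSplice called with or without weights.

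Genes that work with the complexes were set beside them in lists. The background for the shares called is 18.1% of all genes tested and 24.3% of genes in the top 20% by signal. Of 46 tested assembly factors 2 rose and 6 fell (17.4%), with a median log2 difference of -0.049. Coa5, an assembly factor of complex IV, had 2754 and 2528 in Chd4 RNAi cells against 4426 and 4191 in control cells and fell by 38.7% (limma adjusted p = 8.23e-05). Ndufaf7, a methyltransferase needed to build complex I, had 553.1 and 553.0 against 869.9 and 973.9 in control cells and fell by 39.9% (limma adjusted p = 0.00114). Both of these falls were larger than that of any tested subunit gene at its brightest probe set. Lrpprc, which stabilises mitochondrial messenger RNA, rose by 22.3% (limma adjusted p = 0.0142), a call that ended without control replicate 2 (0.0671) or Chd4 RNAi replicate 1 (0.0652).

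Of 21 tested regulators and factors of mitochondrial DNA expression, 2 rose and 3 fell, and 16 had differences below 0 (median -0.21). The share called was 23.8%, beside 18.1% of all genes tested and 24.3% of genes in the top 20% by signal. Mterf3, a factor that acts on mitochondrial transcription and ribosome assembly, had 2608 and 2646 in Chd4 RNAi cells against 3525 and 3847 in control cells and fell by 28.7% (limma adjusted p = 0.000881). Gabpa, the ETS factor of respiratory promoters, had 3794 and 3656 against 4413 and 4885 in control cells and fell by 19.8% (limma adjusted p = 0.00922), a call that ended without control replicate 2 (0.0821). Esrrb, an orphan nuclear receptor of naive pluripotency, fell by 18.2% (limma adjusted p = 0.00722). Nrf1 (-0.32) and Tfam (0.046) did not pass.

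Genes of other electron input, coenzyme Q and adenine nucleotide exchange had 5 rises and 3 falls among 19 tested, with a median of 0.095. That is 42.1%, beside 18.1% of all genes tested and 24.3% of genes in the top 20% by signal. The difference in share was not tested. Etfa, a subunit of the electron transfer flavoprotein, had 6041 and 6054 in Chd4 RNAi cells against 4304 and 4262 in control cells and rose by 41.2% (limma adjusted p = 0.000206). Its partner Etfdh, which hands those electrons to coenzyme Q, had 486.9 and 483.5 against 783.8 and 740.9 in control cells and fell by 36.3% (limma adjusted p = 0.00270). Slc25a4, an adenine nucleotide translocator that exports ATP, had 12600 and 12393 in Chd4 RNAi cells against 8890 and 8968 in control cells, a rise (log2 difference 0.48, limma adjusted p = 9.53e-05). Cyc1, the cytochrome subunit of complex III, did not pass (-0.063). Of 15 tested citric acid cycle genes 0 rose and 1 fell, with 5 at an unadjusted p under 0.05 in limma. The one that fell was Pdha1, of the pyruvate dehydrogenase complex that feeds the cycle, by 24.0% (limma adjusted p = 0.000963). Among 76 mitochondrial ribosomal protein genes 8 rose and 13 fell (27.6%), with a median of -0.030. That share is set beside the 18.5% of the subunit genes and the same background, with no test of the difference. Mrpl16 had 2999 and 3005 in Chd4 RNAi cells against 2256 and 2186 in control cells and rose by 35.2% (limma adjusted p = 0.00158), and Mrps24 rose by 30.9% (0.00303). Mrpl14 had 894.4 and 925.5 against 1392 and 1274 in control cells and fell by 31.7% (limma adjusted p = 0.00242).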

How the data were processed

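RNA from 4 cultures of mouse J1 embryonic stem cells was hybridised to single-colour Affymetrix arrays, with 6 ug of RNA labelled for each array. The authors deposited a linear intensity per probe set (45101 in all), computed with MAS5 per the submitters' processing notes. Its version and scaling target are not given in the sources used here. Detection calls were not used. Groups and replicate numbers came from the sample titles, and gene symbols from the platform annotation, where 34945 probe sets had 1 symbol, 932 several and 9160 none, beside 64 control probe sets. No member symbol needed an update through its Entrez ID.

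Log2 signals without a pseudocount were fitted with limma 3.58.1 (R 4.3.3), Chd4 RNAi minus control, two-sided, with eBayes and its variance trend on signal (degrees of freedom: 2 residual, 9.24 prior). All non-control probe sets in the top 60% by mean log2 signal (mean signal 42.4 or more) were fitted, and Benjamini-Hochberg adjustment ran over all of these, with a threshold of 0.05. Errors are standard errors from this fit. The ratio of Chd4 RNAi to control is 2 to the power of the log2 difference. Percent changes give how far that ratio lies above or below equal signal, in percent of control. Probe sets of a gene were compared with diffSplice. The methods were also run on simulated data whose variances were drawn from the fit's own intensity trend. Such data cannot show whether that trend holds for these arrays. On them the fit made no calls where nothing was changed and missed most changes of small fold. There diffSplice with equal weights called too many unchanged probe sets when dim and bright ones share a gene, and less so with weights from the intensity trend. Calls of diffSplice are therefore given in both forms.

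Members and lists were chosen with earlier results of these data known. Genes named were Chd4, up to 5 of each complex with the smallest p, the 5 largest rises and falls called, isoform pairs, the 5 brightest genes, genes with differing probe sets and up to 3 of each list. Others (Ndufb7, Ndufc1, Ndufa5, Cox5a, Nrf1, Tfam, Cyc1 and the markers) were chosen after their values were seen. Other settings were tried for the variance model, scaling (quantile, median), pseudocount, low-signal filter and choice of probe set, with a replicate block, against a 1.2-fold change and without each array. Same-numbered arrays did not deviate together (r = -0.0019 over the probe sets tested), so the numbers were not used as pairs.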

Additional observations from a re-analysis of the deposited data

How the results depend on the processing

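Without the intensity trend 0 member genes and 0 member probe sets were called in either direction by limma. An unadjusted p under 0.05 was held by 7 member genes, beside 2993 of all 12615 genes tested. Against a 1.2-fold change 0 member genes, 0 member probe sets higher and 1 lower were called, beside 562 (4.46%) of all 12615 genes tested. In that test 4 member genes, beside 1638 of all 12615, had an unadjusted p under 0.05. Chd4 at its brightest probe set (-0.62) did not pass under either setting (limma adjusted p = 0.197 and 0.132). Its other probe sets, with -1.05 and -0.83 in the main fit, were not followed under these settings. With no filter 12 member probe sets fell, and the calls of Uqcrq, Ndufs8 and Ndufa5 ended (limma adjusted p = 0.0709, 0.0565 and 0.0697). Median centring ended those of Uqcrq and Ndufa5 (0.0594 and 0.0615). With probe sets of a gene averaged 8 member genes rose and 10 of the 15 calls held. The calls of Ndufb8, Uqcrq, Cox7c, Atp5o and Sdhc ended (limma adjusted p = 0.0769, 0.0597, 0.0600, 0.186 and 0.433). Sdhc also changed sign (0.089). Cox5b, which was not called at its brightest probe set (0.073), changed sign and passed (-0.27, limma adjusted p = 0.00510). That average includes its dim probe set (-1.25). Medians that moved were, under quantile normalization, -0.047 for all member genes, -0.068 for complex III, -0.019 for complex IV and -0.014 for ATP synthase. With probe sets averaged they were -0.080, -0.088, -0.022 and 0.010 for complexes II, III, IV and ATP synthase, and without _x_at and _s_at probe sets -0.012 for complex III, where the calls of Uqcrq and Cox7c also ended (limma adjusted p = 0.0711 and 0.329). Under the weights from the intensity trend diffSplice called 5 genes.

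Leaving out each array in turn gave 3 to 7 rises and 3 to 15 falls of member genes and 3 to 8 rises and 7 to 25 falls of member probe sets. Medians then ran from -0.019 to 0.0046 over all member genes, -0.11 to -0.055 for complex I, -0.28 to -0.19 for complex II, -0.025 to 0.038 for complex III, 0.0016 to 0.059 for complex IV and 0.050 to 0.12 for ATP synthase, and diffSplice called 0 to 1 genes. With the replicate number as a block, 5 member genes rose and 9 fell, and the call of Ndufa5 ended (limma adjusted p = 0.0531), which was the 1 call of a member gene that it changed. The cause of these changes was not tested. With 2 arrays a group and signals on the MAS5 scale, differences of probe sets near the median signal are poorly resolved.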
